A study of Rattus norvegicus with 4 samples.

Results

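Fibronectin and the integrins, the receptors that bind it and other matrix proteins, were followed in INS-1 cells grown as monolayer or in a 3D-bioprinted hydrogel. The set was fixed by gene name: Fn1, the gene of fibronectin, and the subunit genes Itga3, Itga5, Itga6, Itgav, Itgb1, Itgb3, Itgb4, Itgb5 and Itgb8. Of these 10 genes, 9 were matched by symbol among the 23360 genes of the data, and Itgb5 was not analysed here. Integrins are heterodimers of an alpha and a beta subunit that link the matrix to the actin cytoskeleton. Fibronectin is a secreted dimer that is assembled into fibrils on cell surfaces, for which the Itga5 and Itgb1 product is the classical receptor. Itgav products also bind fibronectin through its RGD motif, whereas the Itga3 and Itga6 products are mainly laminin receptors. In islets, beta cells contact a basement membrane and their Itgb1-containing receptors take part in survival and insulin secretion.

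INS-1 832/3 is a clonal rat insulinoma line that secretes insulin and carries the human insulin gene. Messenger RNA was sequenced from 2 standard monolayer cultures (2D, R1 and R2) and 2 cultures bioprinted in GelXA LAMININK 411, a gelatin methacrylate hydrogel blended with laminin-411 (3D, R1 and R2). All 4 were grown in the same RPMI-1640 medium with serum and Geneticin and harvested on day 5 at passage 3. Printing, light crosslinking, the hydrogel with its added laminin and the 3D shape came together in the 3D group, so their parts in a difference cannot be told apart. RNA was taken from whole cultures, in which a lower share of cells and less RNA per cell cannot be told apart either.

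Levels are given as deposited, in TPM, a measure per transcript length scaled to 1000000 per sample, so that different genes can be set side by side. TPM do not carry the sequencing depth, so no counting error is attached to a value. Between 15180 and 15589 genes per sample were above 0. Differences are log2 fold changes (3D minus 2D) on scaled log2(TPM + 1) with limma's moderated test, called at an adjusted p below 0.05 over the 11960 genes with a mean of at least 1 TPM; at low TPM this scale understates a change. At 2 cultures per group the smallest two-sided p of an exact permutation test is 0.33, so no such test is given. Of all genes tested, 38.0% were called, 18.5% as higher and 19.5% as lower in 3D, and their median log2 fold change was -0.0031. This count rested on both 3D cultures, as 136 genes were called without 3D R1 and 1037 without 3D R2, against 4541 with all 4. Of 118 genes for ribosomal proteins, proteasome subunits, RNA polymerase II and eIF2, 4 were listed at 0 in all samples, so a listed 0 is not read here as absence.

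Of the 9 matched genes, 5 had a mean of at least 1 TPM and were tested. Fn1 rose in 3D culture, and Itgb1, Itga3, Itgav and Itga6 did not pass the test. This count of 1 called gene in 5 is to be read against the 38.0% of all genes, and the median log2 fold change of the 5 was 0.076. Itga5, Itgb3, Itgb4 and Itgb8 lay below the expression filter in both groups.

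Fn1 was listed with 113 and 119.5 TPM in 2D R1 and R2 and with 394 and 386 TPM in 3D R1 and R2. Both 3D cultures stood far above both monolayers, with a spread within groups that was small against the gap (116 ± 4.44 against 389.9 ± 6.11 TPM, SD, n = 2 each). The mean level was 3.35 times as high in 3D. The log2 fold change was 1.69 with a standard error of 0.070 (95% interval 1.52 to 1.87, adjusted p = 0.0014 in limma). It stayed past the threshold in all 12 other settings tried, with values from 1.61 to 1.77 and adjusted p from 1.2e-04 to 0.023. By level, Fn1 moved from rank 1084 and 1024 among the 23360 genes in the monolayers to rank 297 and 308 in 3D. By log2 fold change it was 13th from the top among the 7617 genes with a mean of at least 10 TPM. Among all 11960 genes tested its rank was 34.

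**Figure D1:**
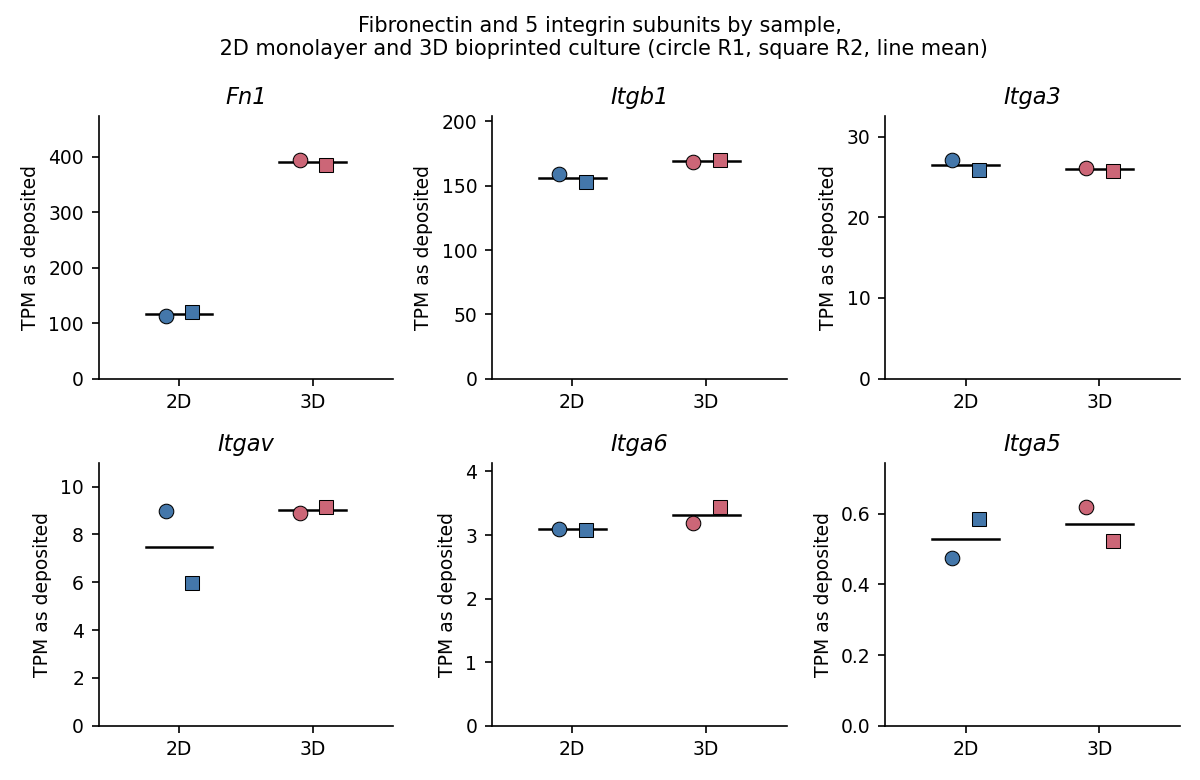
Deposited TPM (vertical axes, each starting at 0) of Fn1 and 5 integrin subunits in 2D monolayer and 3D bioprinted culture; circles are R1, squares R2 and lines the group means of 2 cultures. Fn1 sits at 113 and 119.5 TPM in 2D and 394 and 386 TPM in 3D, while the group means of Itgb1 are 156 and 169 TPM and the Itgav monolayers, at 8.97 and 5.98 TPM, lie apart.

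Fibronectin is listed with 2 transcripts. The more abundant, ENSRNOT00000019772.6, had 90.2 and 98.4 TPM in 2D and 282 and 288 TPM in 3D. The other, ENSRNOT00000057585.4, had 23.0 and 21.2 TPM in 2D and 113 and 97.8 TPM in 3D. Both were higher in each 3D culture than in each monolayer. Groups did not overlap for 70.4% of the 15020 transcripts tested, with 40.3% higher and 30.0% lower in 3D. Both rose in a fit that called 23.5% of transcripts, 10.8% as higher and 12.7% as lower. Their log2 fold changes were 1.52 (standard error 0.081, adjusted p = 0.016 in limma) and 2.14 (standard error 0.090, adjusted p = 0.016). Each lost its call, though not its size, without 3D R1, without 3D R2 or without 2D R2, with adjusted p of 0.155, 0.11 and 0.059.

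The less abundant Fn1 transcript held 20.3% and 17.7% of the gene's TPM in the monolayers and 28.6% and 25.4% in the 3D cultures. All 3D values of this share lay above all 2D values, and how many genes separate in this way was not counted. The ratio of the transcripts was tested with limma over the 2370 genes that have a second transcript of at least 1 TPM, a test chosen after these values were seen. On the log2 scale the ratio was 0.61 higher in 3D (95% interval 0.19 to 1.03), with an unadjusted p of 0.014 and an adjusted p of 0.317 in limma. This did not pass the threshold, in a test that called 0.169% of genes, and 453 genes had a difference at least as large in either direction. Fibronectin pre-mRNA is known for alternative splicing, and reads from exons that transcripts share are divided between them by the quantification.

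**Figure D2:**
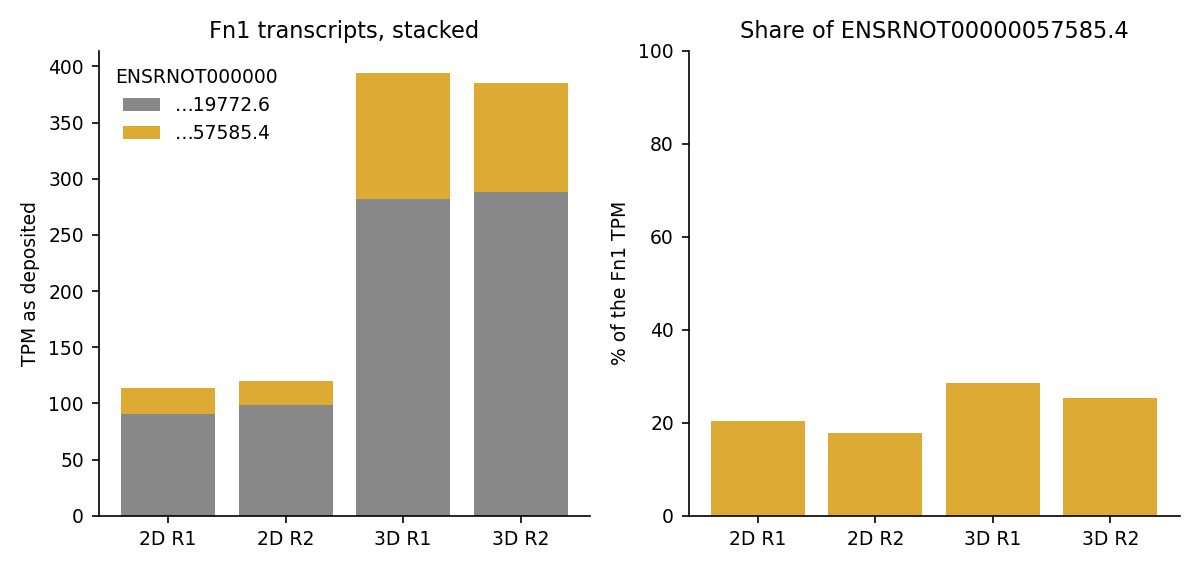
Left, deposited TPM of the 2 Fn1 transcripts, stacked, in each of the 4 samples; right, the share of the Fn1 TPM held by ENSRNOT00000057585.4 in percent. The stacks reach 113 and 119.5 TPM in 2D against 394 and 386 TPM in 3D, and the share is 20.3% and 17.7% in 2D and 28.6% and 25.4% in 3D.

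Itgb1, the beta subunit shared by most matrix-binding integrins, was the most abundant of the integrin subunits that were matched. It had 159 and 153 TPM in 2D and 168 and 170.0 TPM in 3D. The 3D cultures were higher than both monolayers, as was the case for 41.1% of all genes. The log2 fold change of 0.076 did not pass the test (95% interval -0.050 to 0.20, adjusted p = 0.272 in limma), and the interval ends far below the rise of Fn1.

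Among the matched alpha subunits, Itga3, which pairs with Itgb1 as a receptor of laminins, came first. It had 27.1 and 25.9 TPM in 2D and 26.1 and 25.8 TPM in 3D, and the groups overlapped. Its log2 fold change was -0.072 (95% interval -0.22 to 0.072, adjusted p = 0.353 in limma). Almost all of this came from ENSRNOT00000005644.6, which held between 96.3% and 100% of the gene's TPM.

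Itgav, the alpha subunit of RGD-binding receptors, had 8.97 and 5.98 TPM in 2D and 8.88 and 9.14 TPM in 3D. The groups overlapped because 2D R1 stood at the 3D level and 2D R2 below it. Its log2 fold change of 0.23 did not pass the test (95% interval -0.16 to 0.61, adjusted p = 0.280 in limma). Without 2D R1 the value was 0.45 with an adjusted p of 0.023, and without 2D R2 it was -0.0025 with an adjusted p of 0.984, so 1 monolayer culture decided whether any difference was seen.

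Itga6, another laminin-binding alpha subunit, had 3.10 and 3.08 TPM in 2D and 3.19 and 3.44 TPM in 3D. Its deposited values did not overlap, but the log2 fold change of 0.044 was small against its error (95% interval -0.20 to 0.29, adjusted p = 0.740 in limma). Of the 5 genes tested, 3 had groups that did not overlap, against 74.2% of all genes, of which 41.1% were higher and 33.2% lower in 3D.

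Itga5, the alpha subunit of the classical fibronectin receptor, was low. It had 0.476 and 0.585 TPM in 2D and 0.619 and 0.524 TPM in 3D, with overlapping groups. In a fit without the expression filter, over 16749 genes, its log2 fold change was 0.023 (95% interval -0.18 to 0.22, adjusted p = 0.847 in limma). Per length, Fn1 was listed at 204 to 238 times the Itga5 level in the monolayers and at 637 to 736 times in 3D.

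Itgb3, the partner of Itgav in a receptor for vitronectin and fibronectin, had 0.064 and 0.097 TPM in 2D and 0.059 and 0.050 TPM in 3D. Itgb4, the hemidesmosome subunit that pairs with Itga6, was listed at 0 in both monolayers and at 0.0076 and 0.013 TPM in 3D. Itgb8, which pairs with Itgav and binds latent TGF-beta, was likewise listed at 0 in both monolayers, with 0.017 and 0.029 TPM in 3D. In each sample with a value above 0, the Itgb3 and Itgb8 levels came from 1 of 2 listed transcripts, not always the same one. Without the expression filter none of these was called, with adjusted p from 0.491 to 0.760 in limma, and no fold is given for the genes listed at 0.

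The order of the member subunits by mean level was Itgb1, Itga3, Itgav, Itga6, Itga5, Itgb3, Itgb8 and Itgb4, and from Itgb1 down to Itgb3 no neighbouring pair overlapped in any sample. Itgb1 took 80.0% and 81.1% of the summed TPM of these 8 subunits in 2D and 81.2% and 81.4% in 3D. Itga3 took between 12.3% and 13.8%, with both 3D cultures below both monolayers. Itgb1 TPM were 4.01 and 4.29 times the sum of the 4 alpha subunits in 2D and 4.34 and 4.37 times in 3D. Fn1 stood below Itgb1 in the monolayers, at 0.713 and 0.783 times its level, and above it in 3D, at 2.34 and 2.27 times. Shares and ratios are given per sample, with no test and no count of how often such values separate among other genes.

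**Figure D3:**
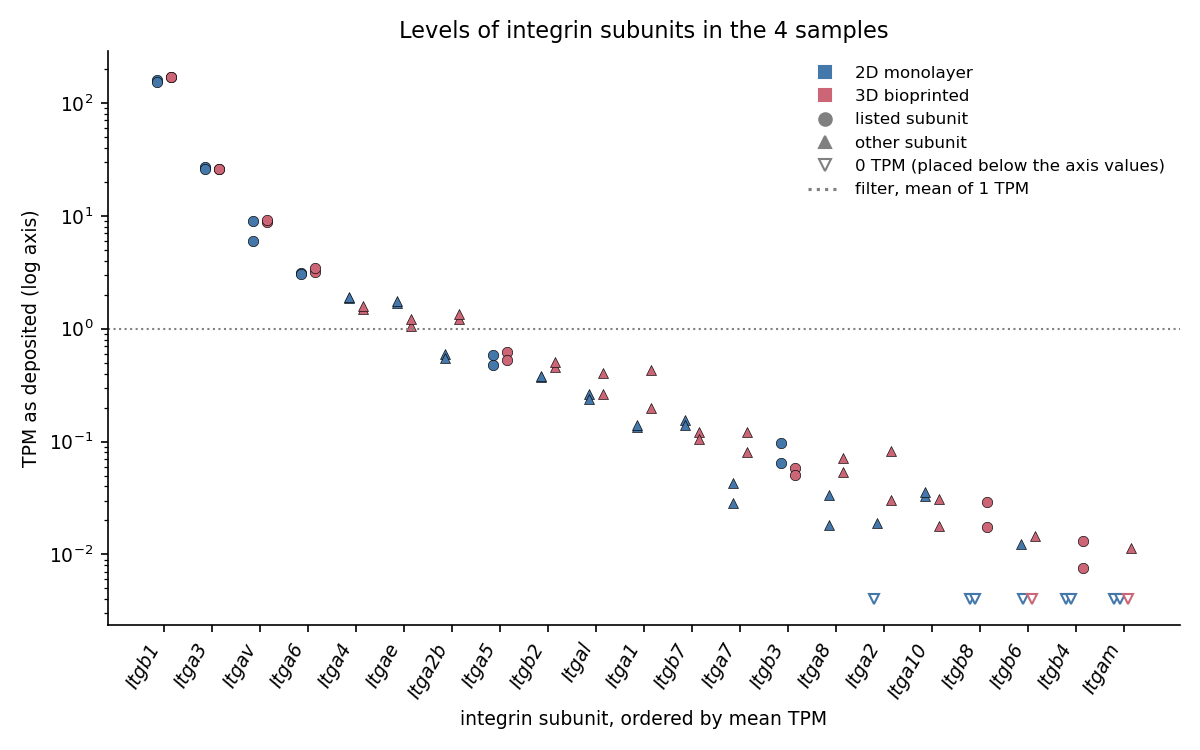
Deposited TPM (log axis) of 21 integrin subunit genes in each 2D (blue) and 3D (red) culture, ordered by mean; circles are the listed subunits, triangles other subunits, and open triangles at the bottom are values of 0. Itgb1 is above 150 TPM in all 4 samples and Itga5 below 1 TPM, and 2D and 3D symbols of the 4 most abundant subunits lie close together.

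The other integrin subunit genes were mostly at low levels. Of 16 matched, 2 reached a mean of 1 TPM, 3 were listed at 0 throughout (Itga9, Itga11 and Itgax), and none was called with the expression filter. The count at an unadjusted p below 0.05 in limma was 1, Itgae, where 6057 of the 11960 genes had such a p. Itga4, whose product with Itgb1 binds fibronectin in its alternatively spliced segment, had 1.86 and 1.91 TPM in 2D and 1.49 and 1.57 TPM in 3D. Its log2 fold change was -0.22 (95% interval -0.51 to 0.070, adjusted p = 0.180 in limma). Itgae, which forms a receptor for E-cadherin with Itgb7, had 1.68 and 1.77 TPM in 2D and 1.07 and 1.22 TPM in 3D. Its log2 fold change was -0.37 (95% interval -0.68 to -0.057, adjusted p = 0.065 in limma). The adjusted p of Itgae was below 0.05 in 3 of 11 other settings. Itga2b, the alpha subunit of the platelet fibrinogen receptor, named here after its values were seen, lay just under the filter with 0.596 and 0.550 TPM in 2D and 1.23 and 1.34 TPM in 3D. It was called in the fit without the filter (log2 fold change 0.52, adjusted p = 0.020 in limma), as were 3588 of 16749 genes.

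Among 13 other ligands of these integrins, 2 reached a mean of 1 TPM, and 1 of them rose, where 18.5% of all genes did. Npnt encodes nephronectin, a basement membrane ligand of Itga8 products. Itga8, outside the member set, had only 0.033 and 0.018 TPM in 2D and 0.053 and 0.072 TPM in 3D. Npnt had 4.61 and 3.98 TPM in 2D and 9.91 and 8.92 TPM in 3D. Both 3D cultures had more than both monolayers, as for 41.1% of all genes (log2 fold change 0.94, standard error 0.096, adjusted p = 0.0044 in limma). Without 3D R1 its adjusted p was 0.057. Mfge8, an RGD protein bound by Itgav products, had 4.55 and 4.52 TPM in 2D and 5.35 and 5.60 TPM in 3D, which did not pass the test (log2 fold change 0.19, 95% interval -0.022 to 0.40, adjusted p = 0.127 in limma). Tnc and Spp1, the genes of tenascin-C and osteopontin, were listed at 0 in all samples. Thbs1, thrombospondin-1, named after its values were seen, had 0.0098 and 0.051 TPM in 2D and 0.474 and 0.404 TPM in 3D. It was called in the fit without the filter (adjusted p = 0.018 in limma), as were 3588 of 16749 genes. Tgfb1 and Tgfb3, whose latent forms carry an RGD motif, had mean levels of 0.234 and 0.412 TPM in 2D and 0.456 and 0.554 TPM in 3D and were not called without the filter (adjusted p = 0.109 and 0.229 in limma).

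Of the co-receptors and assembly factors of fibronectin, 7 of 10 were tested, 2 rose and none fell, with a median log2 fold change of 0.094. Of all genes, 38.0% were called, 18.5% as higher. Lrp1, an endocytic receptor that clears fibronectin and other ligands, had 7.29 and 6.65 TPM in 2D and 10.9 and 10.6 TPM in 3D (log2 fold change 0.52, standard error 0.074, adjusted p = 0.0074 in limma). Sdc4, syndecan-4, a heparan sulphate co-receptor of Itgb1 in adhesion to fibronectin, had 7.92 and 7.84 TPM in 2D and 10.5 and 10.7 TPM in 3D (log2 fold change 0.35, standard error 0.071, adjusted p = 0.017 in limma). In both genes the 3D cultures were higher throughout, as in 41.1% of all genes. Sdc1, the most abundant of this list, had 23.1 and 24.3 TPM in 2D and 25.3 and 26.0 TPM in 3D and did not pass the test (log2 fold change 0.069, adjusted p = 0.466 in limma). Lrp1 and Sdc4 each missed the threshold with 3D R1 left out (adjusted p = 0.082 and 0.120 in limma) or 3D R2 left out (0.055 and 0.11).

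Of 28 genes of integrin activators, adaptors and their partners, 23 were tested, 2 rose, 2 fell and 19 were not called. The share of called genes, 4 of 23, was below the 38.0% of all genes, and the median log2 fold change was -0.037. Tln1, talin-1, which binds beta tails and switches integrins on, had 31.0 and 28.8 TPM in 2D and 36.8 and 38.7 TPM in 3D (log2 fold change 0.29, standard error 0.057, adjusted p = 0.016 in limma). Tns3, tensin-3, an adaptor of fibrillar adhesions, had 39.8 and 37.1 TPM in 2D and 57.0 and 57.5 TPM in 3D (log2 fold change 0.52, standard error 0.053, adjusted p = 0.0044 in limma).

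The 2 adaptor genes that fell were Itgb1bp1 and Sharpin. Itgb1bp1, or ICAP-1, which binds the Itgb1 tail, had 15.1 and 14.1 TPM in 2D and 11.6 and 10.8 TPM in 3D (log2 fold change -0.39, standard error 0.073, adjusted p = 0.013 in limma). Sharpin, which binds alpha tails and was named after its values were seen, had 31.0 and 28.1 TPM in 2D and 23.0 and 25.9 TPM in 3D (log2 fold change -0.31, adjusted p = 0.026 in limma). Rap1b, a small GTPase upstream of talin and the most abundant gene of the list, had 312 and 288 TPM in 2D and 315 and 327 TPM in 3D (log2 fold change 0.054, adjusted p = 0.449 in limma). Without 3D R1 none of the 4 genes was called, with adjusted p of 0.060 for Tns3, 0.082 for Itgb1bp1, 0.106 for Tln1 and 0.169 for Sharpin in limma. Without 3D R2 Tns3 was called, and Itgb1bp1, Tln1 and Sharpin were not (0.099, 0.117 and 0.072). Sharpin also lost its call without either monolayer (0.069 and 0.050), without scaling (0.067) and without the filter (0.051).

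Of the genes of membrane proteins that associate with integrins, 7 of 10 were tested, 2 rose, 1 fell and 4 were not called, near the 38.0% called among all genes, with a median log2 fold change of 0.072. Bsg, basigin, had 477 and 503 TPM in 2D and 620.0 and 641 TPM in 3D (log2 fold change 0.32, standard error 0.070, adjusted p = 0.020 in limma). Cd47, a partner of Itgav integrins and ligand of SIRP-alpha, had 31.0 and 33.0 TPM in 2D and 39.3 and 44.3 TPM in 3D (log2 fold change 0.33, adjusted p = 0.031 in limma). Cd151, a tetraspanin that binds the Itga3 and Itga6 receptors, fell from 127 and 126 TPM to 98.0 and 114 TPM (log2 fold change -0.30, adjusted p = 0.035 in limma). Cd63, the most abundant of the list, had 1478 and 1586 TPM in 2D and 1667 and 1653 TPM in 3D (log2 fold change 0.072, adjusted p = 0.502 in limma). Cd151 kept its call in 5 of 12 other settings, Cd47 in 8 and Bsg in 10, each losing it without 3D R1 (adjusted p = 0.188, 0.101 and 0.126 in limma) or 3D R2 (0.059, 0.168 and 0.120). Without 2D R1 the values were 0.063 for Cd151 and 0.084 for Cd47, and without 2D R2 0.111 for Cd151. Without the filter they were 0.069 for Cd151 and 0.065 for Cd47, and Cd151 was also not called without scaling or without the trend (0.059 each).

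**Figure D4:**
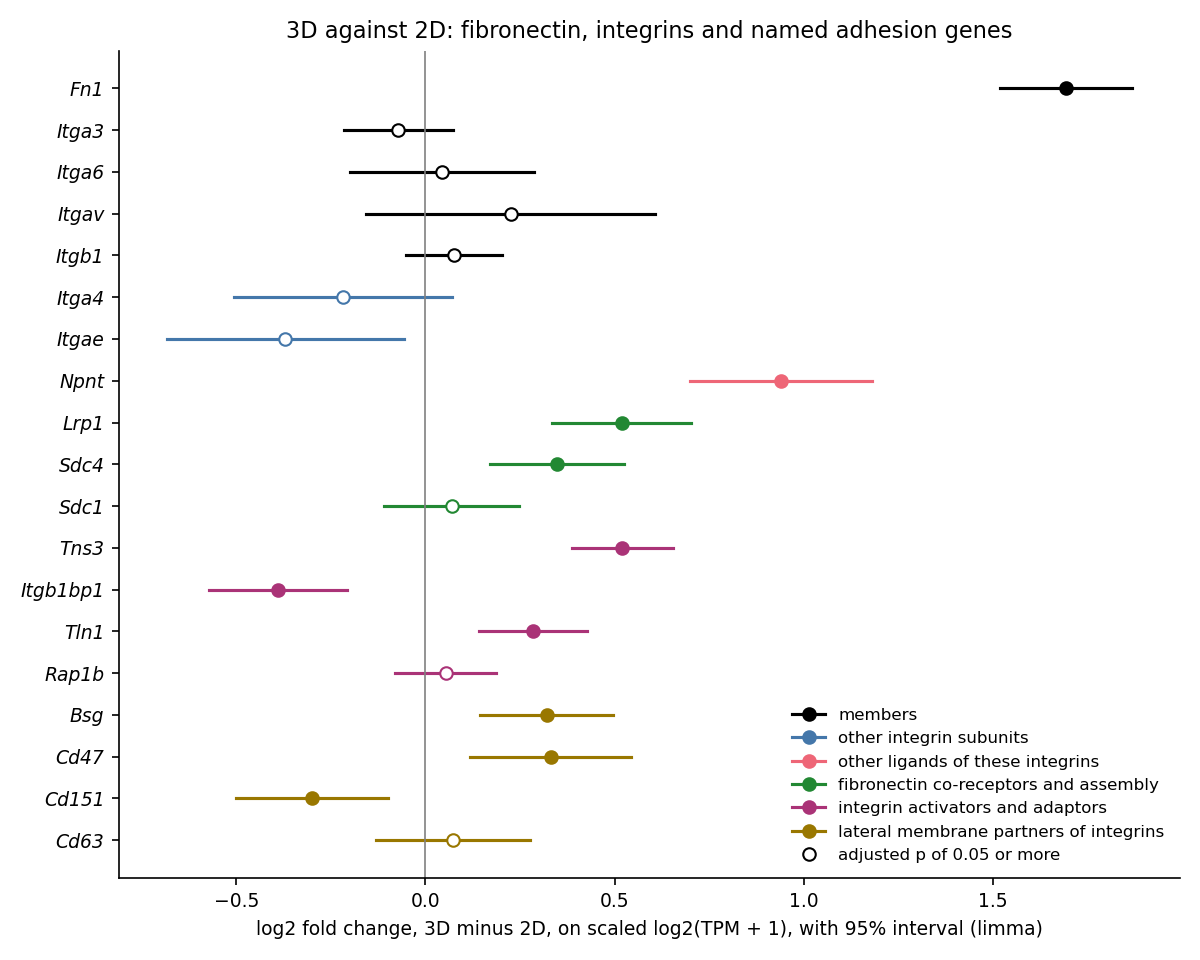
Log2 fold changes (3D minus 2D, scaled log2(TPM + 1)) with 95% intervals from limma for the 5 tested members and for named genes of the adhesion lists; filled points have an adjusted p below 0.05. Fn1 lies at 1.69, the intervals of the 4 tested member integrin subunits include 0, and the other called genes lie between -0.39 and 0.94. The interval of Itgae, outside the member set, lies below 0, with an adjusted p of 0.065 in limma.

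The genes whose pattern over the 4 samples was closest to that of Fn1 were searched among 7616 others with a mean of at least 10 TPM, by the Euclidean distance between scaled log2 values centred on each gene's mean. Among the closest, Sdk2, a cell adhesion molecule of the immunoglobulin superfamily, lay at a distance of 0.22, with 3.82 and 3.99 TPM in 2D and 18.5 and 14.9 TPM in 3D. Pfkfb3, a regulator of glycolysis, and Bhlhe40, a transcriptional repressor, lay at 0.25 each, and Zfp612, a zinc finger gene, at 0.28. The log2 fold changes of these 4 genes ran from 1.47 to 1.86. Of the matched integrin subunits, only Itgb1 and Itga3 had a mean of at least 10 TPM, so the others could not appear. Neither was among these 4 genes. With 4 samples the measure mainly reflects the difference between the groups.

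Since fibroblasts and endothelial cells also make fibronectin, markers of other cells were read in the same samples. Of 9 fibroblast and mesenchymal markers matched, Pdgfrb, Dcn, Lum and Fap were listed at 0 in all 4 samples, Col3a1 in 3 of 4, and Col1a1 was between 0.012 and 0.020 TPM. The summed level of the list was 211 and 214 TPM in 2D and 180.0 and 211 TPM in 3D, nearly all of it from Thy1. Thy1 did not pass the test (log2 fold change -0.17, adjusted p = 0.160 in limma). Pdgfra, the other tested gene of the list, had 1.90 and 1.87 TPM in 2D and 2.32 and 2.24 TPM in 3D. It did not pass the test either (log2 fold change 0.16, adjusted p = 0.289 in limma). Endothelial markers, 7 matched, summed to 1.14 and 1.16 TPM in 2D and 1.43 and 1.72 TPM in 3D, mostly Kdr. Cdh5 and Cldn5 were listed at 0, and Pecam1 was not matched. Kdr did not pass the test (log2 fold change 0.24, adjusted p = 0.198 in limma). Macrophage and leukocyte markers summed to between 0.635 and 1.58 TPM, mostly Cd68, with Ptprc and Itgax listed at 0. The 10 beta-cell markers summed to between 139762 and 161899 TPM, led by Ins1, with 1 called higher (Slc2a2) and 1 lower (Ins2), against 38.0% of all genes called. Without 3D R1 neither was called (adjusted p = 0.076 for Slc2a2 and 0.107 for Ins2 in limma), nor without 3D R2 (0.065 and 0.074), and Ins2 was not called without the filter (0.089). Of the other islet hormones, Gcg rose from 41.9 and 73.8 TPM to 124 and 155 TPM (log2 fold change 1.26, adjusted p = 0.022 in limma), a call lost without 3D R1 or 3D R2 (0.096 and 0.117), with robust empirical Bayes (0.128) and without the expression filter (0.063). The part of these cells in the Fn1 result was not tested.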

How the data were processed

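Messenger RNA of INS-1 cells was sequenced by the authors as 75-bp single-end reads from stranded libraries and quantified per transcript with Salmon 1.2. The authors give the reference as rn4 with the human insulin gene added, which was not checked here. The deposited values are TPM per transcript, written with decimal commas. Groups and replicate numbers came from the sample titles. TPM were summed per gene symbol, scaled by TMM without weights (trimming 30% of M and 5% of A on either side, factors 0.960 to 1.02), filtered at a mean of 1 TPM and tested as log2(TPM + 1) with limma 3.58.1 (empirical Bayes with intensity trend) in R 4.3.3, with Benjamini-Hochberg adjustment over all genes or transcripts tested. The count-based DESeq2 test of the methods was not repeated, as TPM carry no counts. The steps were tested on simulated data, with noise drawn separately for each gene and sample, and the outcome is not given here. Members and lists were chosen with earlier results of these data known. Named genes are the members, other integrins of at least 1 TPM, in each list the 3 called genes of smallest p and the most abundant, and the 5 genes most like Fn1, of which 1 is not reported here. No transcript position or sequence was used. No pair of samples shared a value above 0. The labels call the samples biological replicates, and same-numbered cultures were not treated as pairs in the main fit.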

Additional observations from a re-analysis of the deposited data

How the results depend on the processing

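The rise of Fn1 kept its direction and its call in all 12 alternatives, and Itgb1, Itga3 and Itga6 were not called in any alternative that tested them. As TPM hold no depth, the errors come from the spread between 2 cultures in each group. This spread was moderated by limma toward a trend across all genes or transcripts tested. The replicate number as a block left 1 member gene and 2 member transcripts called and gave 4814 genes in all. Replicates 1 of 2D and 3D deviated from their group means with a correlation of -0.006 across genes, so no shared effect of the replicate number was seen. This cannot show whether same-numbered cultures were handled as pairs. With each culture left out in turn, called genes ranged from 136 to 4515 in all, from 1 to 2 for members (Itgav without 2D R1), from 0 to 2 for member transcripts, from 0 to 1 for other ligands, from 0 to 2 for co-receptors, from 0 to 5 for adaptors and from 0 to 3 for membrane partners. The log2 fold change of Itgav then ran from -0.0025 to 0.45 (its transcript from -0.018 to 0.43), of Sdc1 from -0.0046 to 0.14, of Cd63 from -0.018 to 0.16, of Ins1 from -0.015 to 0.21 and of the Itga6 transcript from -0.0018 to 0.067. At an adjusted p below 0.01, 1418 genes were called in all, 1 co-receptor, 1 adaptor, and 0 membrane partners and 0 member transcripts. Without the expression filter, 2 other integrins, 2 other ligands and 1 membrane partner were called, against 3588 of all 16749 genes in that fit. Empirical Bayes without trend or in its robust form called 1 other integrin, Itgae, and 4202 and 4818 genes in all, respectively. The difference in the Itgb1 share of 0.77 percentage points ranged from 0.23 to 1.3. The cause of these shifts was not tested.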
